A study of Mus musculus with 42 samples.

Results

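The long noncoding RNAs described here are *Malat1*, *Neat1*, *Meg3*, *Rian*, *Mirg*, *H19*, *Gas5*, *Miat*, *Pvt1* and *Dleu2*. They were chosen by name, as widely studied noncoding transcripts other than *Tug1*, with earlier results of these data known. They make up 10 of the 26653 genes measured in each tissue. The question was at what level each one was expressed across mouse tissues and whether that level differed when the *Tug1* locus was deleted. RNA had been sequenced from testes, prostate, spleen, eyes, heart and liver of adult mice and from mouse embryonic fibroblasts (MEFs), which are primary connective tissue cells cultured from embryos.

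All animals were males of the Tug1_tm1.1Vlcg strain on a C57BL/6J background from which the neomycin cassette had been removed. Wild-type animals carried a pair of intact *Tug1* alleles, and in knockout animals both alleles held a *lacZ* reporter in place of the *Tug1* gene body. Per the study's description the promoter and first exon remain, so that transcription can still start at the locus. MEFs came from littermate male embryos and were used at passage 2. There were 42 samples, 22 wild-type and 20 knockout. The testes groups had 4 wild-type and 3 knockout samples, the prostate groups 3 and 2, and all other groups had 3. The age of the adult animals is not given in the sources used here. *Tug1* itself lay between 11.2 and 27.7 FPKM in the 7 wild-type groups and between 0.00753 and 0.402 FPKM in the knockout groups, and no knockout group reached a wild-type one.

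Expression is given in FPKM, a fragment count scaled to transcript length and library size. Each tissue and genotype had 1 value, which the authors had formed from all replicates. No spread between animals and no sequencing depth can be read from such values, so no test was possible, and every difference below is a difference between a pair of combined values. A change is log2((KO + 0.1)/(WT + 0.1)), and the added 0.1 FPKM draws the change of weakly expressed genes towards 0. A gene was read for change in a tissue where the mean of both genotypes was at least 1 FPKM, and it was counted as past the limit when its values differed by more than 1.5 times, a log2 change beyond 0.58 in either direction. In whole tissues, fewer cells of a type and less RNA per cell cannot be told apart.

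Long noncoding RNAs act as RNA or through the act of their transcription, and several of the genes described here also carry smaller RNAs within their introns or exons. *Malat1* and *Neat1* stay in the nucleus, where *Malat1* gathers in splicing-factor speckles and *Neat1* builds the paraspeckle. *Meg3*, *Rian*, *Mirg* and *H19* are imprinted genes, read from the maternal chromosome only, and are known for high expression in the embryo and low expression in most adult organs. *Gas5*, *Rian*, *Mirg* and *Dleu2* are host genes, from whose transcripts small nucleolar RNAs (snoRNAs) or microRNAs are cut.

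The microRNAs carried by these hosts are shown because the level of a host transcript is what the sequencing measured, while the mature microRNAs, about 22 bases long, were not measured. In RefSeq on GRCm38.p6, 2 mature microRNAs lie in an exon of *H19*, 4 in an intron of *Dleu2*, 3 in exons of *Meg3*, 6 in introns of *Rian*, and 26 in *Mirg*, of which 8 are exonic and 18 intronic. One or 2 are printed for each host, 5′ to 3′, with the seed (bases 2 to 8, which pair with the target) in capitals.
miR-675-5p in *H19*: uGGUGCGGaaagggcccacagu
miR-675-3p in *H19*: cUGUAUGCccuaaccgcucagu
miR-15a-5p in *Dleu2*: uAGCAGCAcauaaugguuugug
miR-16-5p in *Dleu2*: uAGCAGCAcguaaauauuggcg
miR-770-5p in *Meg3*: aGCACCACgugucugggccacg
miR-370-3p in *Rian*: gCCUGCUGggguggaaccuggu
miR-453 in *Mirg*: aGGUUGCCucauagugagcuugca
miR-496a-5p in *Mirg*: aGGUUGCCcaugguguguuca
The pair from *Dleu2* shares the seed AGCAGCA, and the pair from *Mirg* shares the seed GGUUGCC. No other seed was held in common among the mature microRNAs of these hosts.

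Of the 70 combinations of gene and tissue, 54 reached the level limit and 16 did not. Past the 1.5-fold limit were 5 of the 54 (9.26%), and over all genes and tissues 3.49% were (5.95% of noncoding genes, among which these 10 and *Tug1* are counted). The difference between these shares was not tested, and 5 calls are too few to read it as a property of the 10 genes. The median log2 change over the 54 was -0.07. The 5 fell on 5 genes and 3 tissues, and *Neat1*, *Meg3*, *Mirg*, *Pvt1* and *Dleu2* had none.

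By tissue, MEFs held 2 of 9 readable genes past the limit, both lower in the knockout, against a background of 2.2% of all genes in that direction and 3.18% in either. Prostate held 2 of 7, with *Rian* higher and *Malat1* lower, against 3.08% of all genes in either direction, 2.4% higher and 0.682% lower. Testes held 1 of 9, *Miat*, against 1.92% in either direction and 1.17% higher. None was past it among 6 in spleen (background 6.02%), 9 in eyes (3.51%), 8 in heart (2.32%) and 6 in liver (4.81%). The 10 genes therefore showed no tissue in which most of them moved together past the limit.

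**Figure D1:**
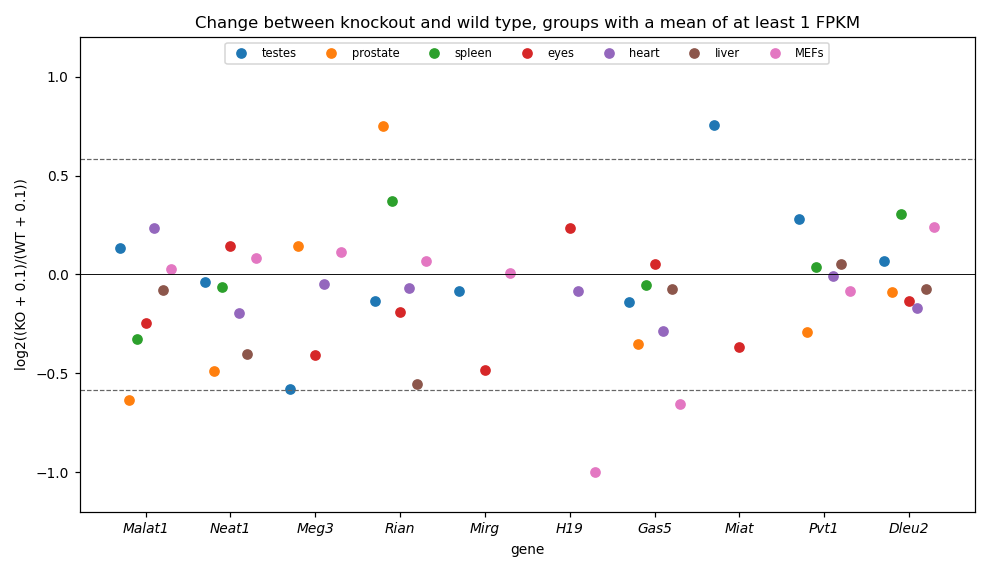
Log2 change between knockout and wild type, with 0.1 FPKM added to each value, of the 10 genes in the tissues (colours) where their mean was at least 1 FPKM, with dashed lines at a 1.5-fold difference. *Rian* in prostate (0.75) and *Miat* in testes (0.76) lie above the upper line and *H19* in MEFs (-1.0), *Gas5* in MEFs (-0.65) and *Malat1* in prostate (-0.63) below the lower one.

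The nuclear RNAs *Malat1* and *Neat1* were above the level limit in every tissue, with a lowest value of 16.8 FPKM. Their relative levels differed by tissue far more than by genotype. *Malat1* (ENSMUSG00000092341.2) has a longest transcript of 6983 bases and spans 5795690 to 5802672 on chromosome 19, minus strand (GENCODE vM21, GRCm38). *Neat1* (ENSMUSG00000092274.2) lies beside it on the same strand, from 5824708 to 5845478, with a longest transcript of 20771 bases. RNA was selected here by its poly(A) tail, a step known to capture both unevenly, since *Malat1* ends in a folded structure instead of a tail and the long form of *Neat1* lacks one.

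*Malat1* stood at 161 FPKM in wild-type and 176 FPKM in knockout testes. Its levels were 112 and 94.3 FPKM in eyes, 107 and 85.6 in spleen, 85.2 and 86.9 in MEFs, 71.3 and 83.8 in heart, 70.6 and 45.4 in prostate, and 21.4 and 20.3 in liver. Liver was thus the lowest tissue in both genotypes, and wild-type levels spanned 7.5 times. *Neat1* stood at 272 FPKM in wild-type and 194 FPKM in knockout prostate and at 206 and 179 FPKM in heart. It was lower elsewhere, with 91.6 and 87.8 FPKM in spleen, 87.2 and 96.2 in eyes, 25.3 and 24.7 in testes, 24.6 and 26.0 in MEFs, and 22.2 and 16.8 in liver. Wild-type levels of *Neat1* spanned 12.3 times, with prostate and heart above all others in both genotypes.

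The *Malat1* level over the *Neat1* level was 6.35 in wild-type and 7.15 in knockout testes, and 3.47 and 3.34 in MEFs. The same ratio of FPKM was 0.260 and 0.234 in prostate and 0.347 and 0.467 in heart. The neighbouring genes therefore stood in opposite order in testes and MEFs as against prostate and heart, whichever genotype was read. In spleen, eyes and liver the ratio lay between 0.967 and 1.28 in the wild type and between 0.974 and 1.21 in the knockout, near equal levels.

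**Figure D2:**
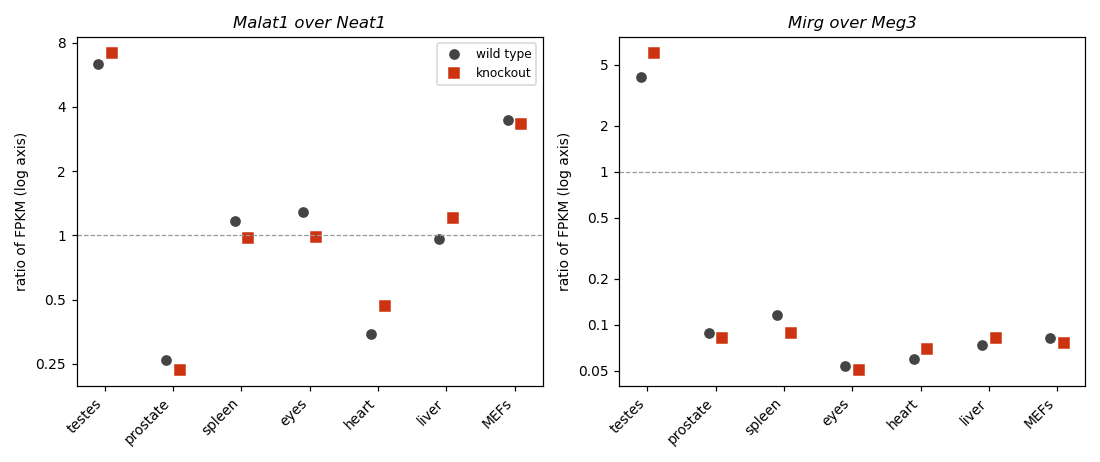
Ratio of FPKM levels of neighbouring noncoding genes in 7 tissues (log axis), wild type as circles and knockout as squares, 1 combined value per group, with a dashed line at equal levels. *Malat1* exceeded *Neat1* by 6.35 and 7.15 times in testes and lay at 0.260 and 0.234 of it in prostate, and *Mirg* exceeded *Meg3* in testes alone among the 7 tissues.

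In testes, the *Malat1* log2 change was 0.13, in heart 0.23, in MEFs 0.03, in liver -0.08, in eyes -0.25 and in spleen -0.33. Only in prostate did it pass the limit among the 7 tissues, with a log2 change of -0.63 (knockout at 64.3% of wild type). *Neat1* passed in none. Its largest log2 changes were -0.49 in prostate, where the knockout held 71.3% of the wild-type level, and -0.40 in liver, and its other 5 lay between -0.20 and 0.14. The 9 listed paraspeckle and associated nuclear proteins gave a median log2 change of -0.01 in prostate, none of them past the limit. In liver, 2 of the 9 were past it and higher in the knockout, *Sfpq* at 36.9 and 56.6 FPKM and *Rbm14* at 4.81 and 7.68 FPKM, while *Neat1* was at 22.2 and 16.8 FPKM. Of all genes in liver, 4.81% were past the limit in either direction and 2.55% were past it and higher.

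*Miat* (ENSMUSG00000097767.2), a nuclear RNA known from neurons and the retina, spans 112213228 to 112229395 on chromosome 5, minus strand. It had the most restricted pattern of the 10. Eyes held 4.28 FPKM in the wild type and 3.30 FPKM in the knockout, and testes held 1.06 and 1.86 FPKM. All other groups were below 0.1 FPKM, and *Miat* was listed at 0 in liver in both genotypes. The eyes and testes were therefore the tissues in which its change could be read. In testes the log2 change was 0.76, past the limit and higher in the knockout, and in eyes it was -0.37. With a pseudocount of 1 the testes value was 0.47, within the limit. The 5 listed neuronal markers in eyes had log2 changes between -0.17 and 0.00, with a summed level of 486 FPKM in the wild type and 457 in the knockout.

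Beside the *Miat* difference, the values of markers of the somatic cells that support the germ line were also higher in knockout testes. All 4 Leydig cell markers were higher in the knockout, within the limit, with *Insl3* at 756 and 1131 FPKM and a summed level of 896 against 1300.1 FPKM. All 4 Sertoli cell markers were likewise higher, with a summed level of 500 against 631 FPKM, and 6 of the 7 germ cell markers were lower. Whether these shifts have a part in the *Miat* value was not tested. A second caution is that the *Miat* gene shares 13935 bases with *Gm26953* on the opposite strand, and the library kit did not keep the strand.

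**Figure D3:**
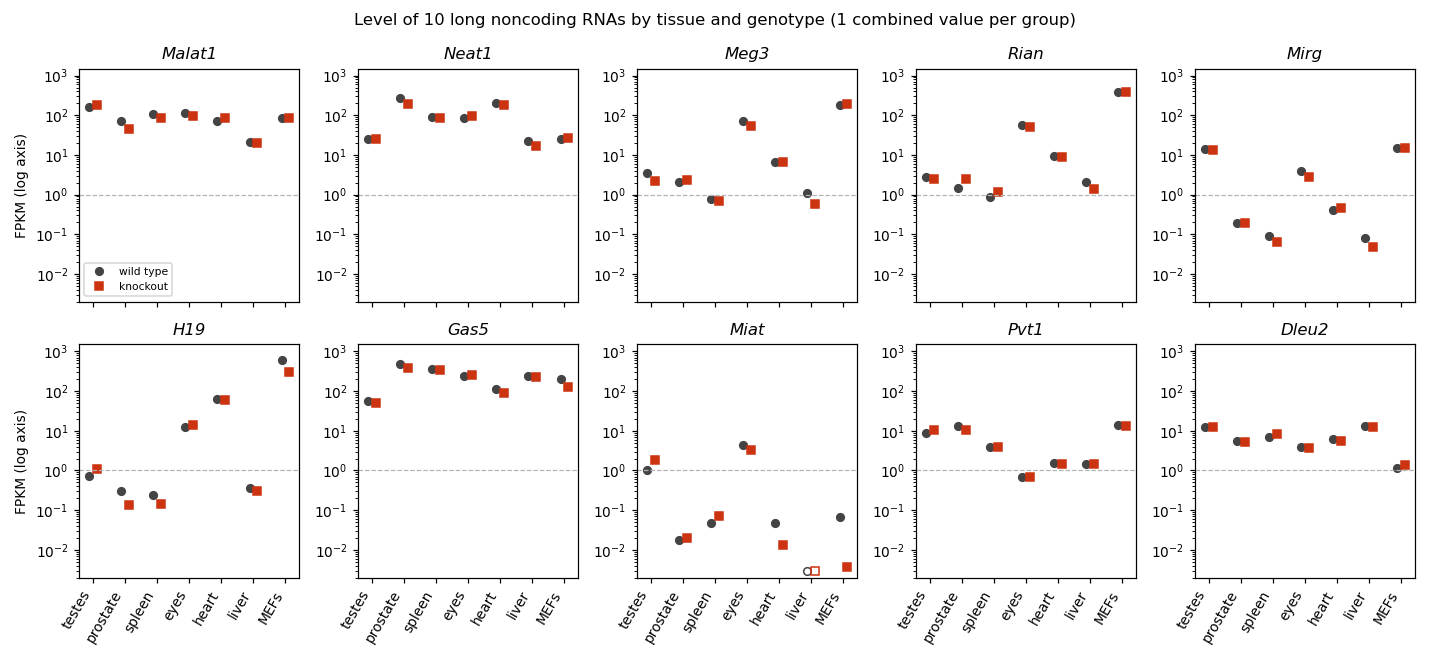
FPKM (log axis) of the 10 long noncoding RNAs in 7 tissues, wild type as circles and knockout as squares, 1 combined value per group and no error available. The dashed line marks 1 FPKM and open symbols mark *Miat* in liver, listed at 0. *Gas5* lay above 50 FPKM in all 14 groups, whereas *H19* ran from 0.138 FPKM in knockout prostate to 618 FPKM in wild-type MEFs.

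*Meg3* (ENSMUSG00000021268.11), *Rian* (ENSMUSG00000097451.3) and *Mirg* (ENSMUSG00000097391.2) follow one another on the plus strand of chromosome 12, from 109541001 to 109571726, from 109603940 to 109661716 and from 109729764 to 109749460. They belong to the *Dlk1*-*Dio3* imprinted domain and are read from the maternal chromosome. *Rian* holds 13 annotated snoRNA genes and 4 microRNA genes, and *Mirg* holds 14 microRNA genes.

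*Meg3* stood at 181 FPKM in wild-type and 196 FPKM in knockout MEFs, at 71.3 and 53.7 FPKM in eyes, and at 6.78 and 6.55 FPKM in heart. In testes it was 3.42 and 2.25 FPKM, in prostate 2.14 and 2.37, in liver 1.09 and 0.580, and in spleen 0.783 and 0.712. MEFs and eyes thus exceeded all other tissues in both genotypes. *Rian* followed the same order at the top, with 377 and 394 FPKM in MEFs, 56.7 and 49.6 in eyes and 9.31 and 8.86 in heart. Its remaining levels were 2.81 and 2.55 FPKM in testes, 2.06 and 1.38 in liver, 1.45 and 2.51 in prostate, and 0.870 and 1.15 in spleen. In wild-type MEFs *Rian* held rank 199 of all genes by FPKM and *Meg3* rank 397.

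*Mirg* departed from this order in testes. It stood at 14.2 FPKM in wild-type and 13.4 FPKM in knockout testes and at 14.8 and 14.9 FPKM in MEFs. With each group rescaled to the same sum, its levels were 19.5 and 19.7 in testes and 29.5 and 31.0 in MEFs. In eyes it was 3.83 and 2.72 FPKM, in heart 0.402 and 0.454, and in the remaining 3 tissues below 0.2. The *Mirg* level over the *Meg3* level was 4.15 and 5.95 in testes and lay between 0.0506 and 0.116 in all 12 other groups. Testes was thus the tissue, of the 7, in which *Mirg* stood above *Meg3*.

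Of the changes of these 3 genes, 1 passed the limit. *Rian* in prostate had a log2 change of 0.75, from 1.45 to 2.51 FPKM, with 2 knockout samples behind the higher value. With a pseudocount of 1 it came to 0.52, within the limit. *Meg3* in testes had -0.58, just inside the limit. In eyes all 3 genes were lower in the knockout, with log2 changes of -0.41 for *Meg3*, -0.19 for *Rian* and -0.48 for *Mirg*, and in MEFs all 3 lay between 0.01 and 0.11. Their paternally read neighbour *Dlk1*, a Notch-related gene, was at 15.6 and 18.9 FPKM in MEFs, a log2 change of 0.27.

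*H19* (ENSMUSG00000000031.9) spans 142575529 to 142578143 on chromosome 7, minus strand, with a longest transcript of 2286 bases. It is read from the maternal chromosome and shares enhancers with *Igf2*, the insulin-like growth factor gene that is read from the paternal one. *H19* stood at 618 FPKM in wild-type MEFs and at 309 FPKM in knockout MEFs. Heart held 61.7 and 58.1 FPKM and eyes held 12.1 and 14.3 FPKM. In the other tissues it was low, with 0.708 and 1.07 FPKM in testes, 0.362 and 0.302 in liver, 0.312 and 0.138 in prostate, and 0.243 and 0.141 in spleen. The wild-type span of 2536 times was the widest among the 9 genes with a level above 0 in every wild-type group.

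The *H19* log2 change in MEFs was -1.0, the largest of all 54 readable changes among the 10 genes, with the knockout at 50.0% of the wild-type level. Its rank among all genes went from 140 to 230. In eyes the log2 change was 0.23 and in heart -0.09, both within the limit. *Igf2* in MEFs stood at 618 and 379 FPKM, a log2 change of -0.71, so that the *H19* level over the *Igf2* level was 0.999 in the wild type and 0.816 in the knockout. In heart, the same ratio was 2.64 and 1.92.

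Other imprinted genes, from a list chosen with earlier results of these data known, were read beside *H19* in MEFs. Of 16 at the level limit, apart from the genes of the *Dlk1*-*Dio3* and *Igf2*-*H19* domains, 14 were lower in the knockout. Past the limit and lower were 3 of the 16, while 2.2% of all genes in MEFs were past it and lower. The median log2 change of the 16 was -0.27, against -0.00 over all genes. *Peg3*, a zinc finger gene read from the paternal allele, stood at 79.7 and 45.3 FPKM. *Mest* stood at 29.8 and 17 FPKM. *Cdkn1c*, a cell cycle inhibitor read from the maternal allele, stood at 14.5 and 9.31 FPKM. *Meg3*, *Rian* and *Mirg* did not share this direction, as given above. The fibroblast markers *Col1a1* (log2 change -0.10), *Thy1* (-0.02) and *Postn* (0.09) were within the limit, and so were *Col1a2* at -0.21 and *Dcn* at -0.53, the last of which is also among the imprinted genes counted here. Of markers of other cell types in MEFs, the macrophage gene *Lyz2* was past the limit and higher in the knockout (54.4 and 95.0 FPKM), while *Cd68* (-0.53) and *Csf1r* (-0.35) had log2 changes below 0, and *Clu*, from the Sertoli list, was past the limit and lower (-0.88). Their part in the values of *H19* and the other imprinted genes was not tested.

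**Figure D4:**
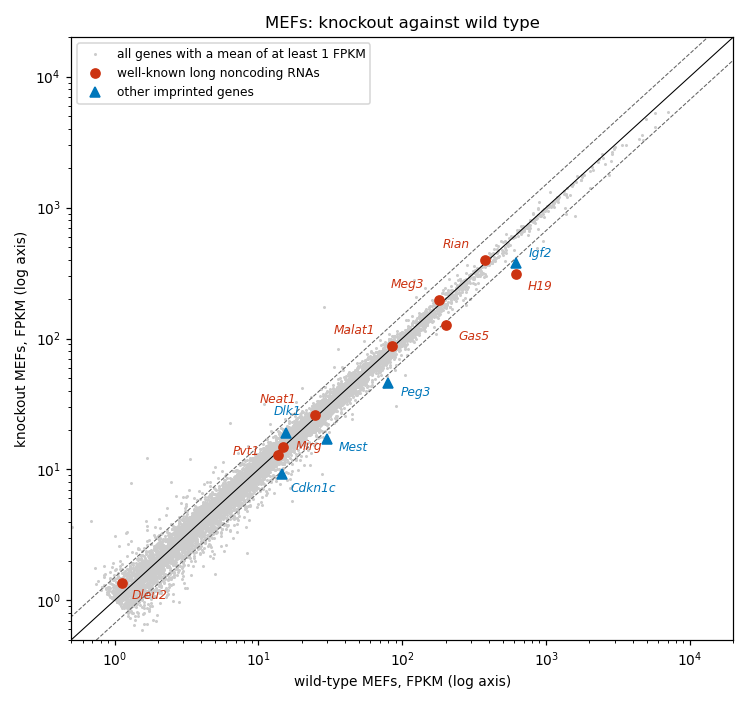
FPKM in knockout against wild-type MEFs (log axes) for all genes with a mean of at least 1 FPKM in grey, with 9 of the 10 long noncoding RNAs as red circles and 5 imprinted protein-coding genes as blue triangles. The 5 are those named in the text and do not stand for all imprinted genes. Of 16 imprinted genes outside the *Dlk1*-*Dio3* and *Igf2*-*H19* domains, 3 were past the 1.5-fold limit, all lower. The solid line marks equal levels and the dashed lines a 1.5-fold difference. *H19* at 618 and 309 FPKM and *Gas5* at 201 and 128 FPKM lie below the lower dashed line, as do *Igf2*, *Peg3*, *Mest* and *Cdkn1c*.

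*Gas5* (ENSMUSG00000053332.7) is the host of 10 annotated snoRNA genes on the plus strand of chromosome 1, from 161034422 to 161038539. Its spliced RNA is known to begin with a tract of pyrimidines (C or T), the 5′ terminal oligopyrimidine signal of transcripts whose use is tied to translation and growth. The first 20 transcribed bases and the 10 bases before them are shown for 1 of its 2 RefSeq starts and for *Snhg7*, another snoRNA host. Each printed start begins with such a tract, in capitals, and the other *Gas5* start does not.
*Gas5*, chr1:161035156-161035185, plus strand: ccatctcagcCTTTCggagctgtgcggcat
*Snhg7*, chr2:26640225-26640254, minus strand: gatgctcggcCTCTCggcagccatggcggc
A start with C as the first base, and C or T in the next 4, was present at 2.51% of 32851 RefSeq starts on GRCm38.p6. Among 15 starts of other snoRNA hosts it was present at 2, those of *Snhg7* and *Snhg8*, and absent at the rest. The search was made on the transcribed strand only, and a match is a description of letters and not a tested signal.

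*Gas5* was expressed at high levels in every tissue. It stood at 474 FPKM in wild-type and 372 FPKM in knockout prostate, at 360 and 348 FPKM in spleen, and at 240 and 249 FPKM in eyes. Liver held 238 and 226 FPKM, heart 111 and 91.6, and testes, the lowest tissue, 56.3 and 51.0. MEFs held 201 FPKM in the wild type and 128 FPKM in the knockout. That log2 change of -0.65 (knockout at 63.6% of wild type) was past the limit, and the changes in the other 6 tissues lay between -0.35 and 0.05.

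The other snoRNA hosts of MEFs stood apart from *Gas5* in direction. Of 8 at the level limit, 7 had a higher value in the knockout and 1 passed the limit, *Snhg9*, which was lower at 1.56 and 0.597 FPKM. Of all genes in MEFs, 3.18% passed the limit in either direction. *Snhg7*, with the same kind of start as the *Gas5* start shown above, stood at 4.24 and 5.92 FPKM, a log2 change of 0.47. *Snhg4* was at 8.30 and 11.0 FPKM, *Snhg5* at 25.7 and 33.1 FPKM and *Snhg1* at 7.11 and 9.17 FPKM. The median log2 change of these 8 hosts was 0.32. In GENCODE vM21 *Gas5* overlaps the protein-coding gene *Zbtb37* by 428 bases on the opposite strand. The locus deposited with the *Gas5* values begins earlier, at 161017756, so the bases behind them may differ from this annotation. *Zbtb37* stood at 2.70 and 2.20 FPKM in MEFs, and its part in the *Gas5* values was not tested.

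*Dleu2* (ENSMUSG00000097589.3) hosts miR-15a and miR-16-1, shown above, and spans 61602839 to 61682373 on chromosome 14, minus strand. The locus deposited with the *Dleu2* values begins at 61598226 instead. *Dleu2* was low to moderate everywhere. Liver held 13.2 FPKM in the wild type and 12.6 FPKM in the knockout, testes 12.1 and 12.7, spleen 6.82 and 8.45, heart 6.31 and 5.60, prostate 5.49 and 5.17, eyes 4 and 3.64, and MEFs, the lowest, 1.13 and 1.35. None of its 7 log2 changes was past the limit, and they ran from -0.17 in heart to 0.30 in spleen. Its gene overlaps the protein-coding genes *Trim13* (by 3108 bases) and *Kcnrg* (by 5370 bases) on the opposite strand, so reads there cannot be assigned by strand. *Trim13*, a ubiquitin ligase gene, was at 2.35 and 1.29 FPKM in liver, a log2 change of -0.82, while *Dleu2* changed by -0.07 there.

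*Pvt1* (ENSMUSG00000097039.2) spans 340111 bases on the plus strand of chromosome 15, from 62037986 to 62378096, next to the growth regulator *Myc*. It stood at 13.7 and 12.9 FPKM in MEFs, at 13 and 10.6 FPKM in prostate, and at 8.72 and 10.6 FPKM in testes. Spleen held 3.81 and 3.92 FPKM, heart 1.5 and 1.49, liver 1.43 and 1.49, and eyes 0.679 and 0.685. Its 6 readable log2 changes ran from -0.29 in prostate to 0.28 in testes, none past the limit. *Myc* was past the limit in MEFs, at 27.5 and 41.4 FPKM, and in liver, at 1.63 and 3.05 FPKM, while the *Pvt1* log2 changes there were -0.09 and 0.05. Over a list of 18 protein-coding genes beside the 10, those past the limit were *Myc* in MEFs and liver, *Trim13* in liver and *Tnnt3*, a muscle gene near *H19*, in spleen, eyes and heart, and none in testes or prostate.

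Tissue range was summarised by the index tau on log2(level + 1), after each group was rescaled to the same sum because the FPKM sums of the groups differed, from 378014 to 1124495. Tau is 0 for equal levels in all tissues and 1 for a gene found in a single tissue. In the wild type it was 0.149 for *Gas5*, 0.166 for *Malat1*, 0.208 for *Dleu2* and 0.262 for *Neat1*. It was 0.453 for *Pvt1*, 0.642 for *Meg3*, 0.681 for *Rian*, 0.685 for *Mirg*, 0.768 for *H19* and 0.919 for *Miat*. The median was 0.542 over 20679 genes and 0.853 over the 2422 noncoding genes among them, so 9 of the 10 lay below the noncoding median and *Miat* above it. On the knockout values tau ran from 0.156 for *Malat1* and 0.157 for *Gas5* to 0.888 for *Miat*.

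On rescaled levels the highest tissue was MEFs for *Meg3*, *Rian*, *Mirg*, *H19* and *Pvt1*, prostate for *Neat1*, eyes for *Miat* and testes for *Dleu2*, in both genotypes. For *Malat1* it was eyes in the wild type (296) and testes in the knockout (259), and for *Gas5* prostate in the wild type (781) and spleen in the knockout (712). With 1 value per group these top tissues cannot be ordered. The lowest tissue on this scale was liver for *Malat1*, *Neat1*, *Pvt1*, *Meg3* and *Mirg* in both genotypes, testes for *Gas5* and MEFs for *Dleu2*.

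In prostate, *Malat1*, *Neat1*, *Gas5*, *Pvt1* and *Dleu2* had lower values in the knockout and *Meg3* and *Rian* higher ones, and the median log2 change of the 7 readable genes was -0.29, against -0.04 over all genes. Markers of other cell types differed between the prostate groups as well. The adipocyte markers *Adipoq* (3.93 and 15.5 FPKM), *Cidec* (4.816 and 19.997) and *Plin1* (1.60 and 5.17) were past the limit and higher in the knockout, *Lep* was at 0.377 and 0.886 FPKM below the level limit, and the list summed to 10.7 and 41.5 FPKM. The 5 seminal vesicle genes moved unevenly. *Svs5* was past the limit and higher (4182.5 and 11506.6 FPKM), *Svs3a* was past it and lower (5.41 and 3.44 FPKM), and the log2 changes of *Svs6*, *Svs2* and *Svs4* were -0.56, 0.14 and 0.42. Of 3 erythroid markers at the level limit, 2 were past it and higher. Of the prostate's own markers, *Pbsn* was at 25019.5 and 21140.9 FPKM and *Tgm4* was listed at 0. The part of these differences in the values of *Malat1* and *Rian* was not tested, and the knockout group held 2 samples.

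In eyes, *Malat1*, *Meg3*, *Rian*, *Mirg*, *Miat* and *Dleu2* had lower values in the knockout and *Neat1*, *H19* and *Gas5* higher ones, with a median log2 change of -0.19, against -0.02 over all genes. All 6 skeletal muscle markers there were past the limit and higher in the knockout, with a summed level of 1715 and 3130.2 FPKM. So were 3 of 3 adipocyte markers at the level limit (a list sum of 16.7 and 58.5 FPKM) and 3 of 3 erythroid markers (51.0 and 120 FPKM). The log2 changes of the 5 eye markers lay between -0.16 and 0.12. In spleen the median log2 change was -0.01, in heart -0.08 and in liver -0.08. Knockout spleen held pancreatic enzyme transcripts (a list sum of 17.3 and 1446 FPKM), and all 5 erythroid markers there were past the limit and higher (1767 and 3888 FPKM). In knockout heart, 4 of 6 skeletal muscle markers were past the limit and lower, yet 1 was higher and the list sum was 1340 and 1402 FPKM. Also past the limit and lower were 4 of 4 lymphoid markers at the level limit (a list sum of 31.3 and 14.3 FPKM). The same held for 3 of 3 adipocyte markers (49.6 and 23.4 FPKM). The part of these shifts in the values of the 10 genes was not tested. In liver, *Alb* and *Serpina1a* were listed at 0 in both genotypes with the status LOWDATA, although *Apoa1* was at 12014 and 13744 FPKM. A 0 with that status is thus not a measured absence, and *Tgm4* in prostate carried it too. *Miat* in liver, also listed at 0, carried a different status, NOTEST.

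For each of the 10, the gene whose pattern was most like it over the 14 groups was found by the Pearson correlation r of log2(rescaled level + 1) among 20871 genes. These points share 7 tissues, each entering once per genotype, so r describes tissue pattern and nothing of regulation. *Meg3* was most like *Slit2* (r = 0.994), an axon guidance factor, and *Rian* was most like *Ptx3* (0.995) and *Col8a1* (0.992), with *Meg3* in the next place (0.989). *H19* was most like *Creb5* (0.979) and *Tead1* (0.979), both transcription factor genes. *Mirg* was most like *Cd109* (0.984). *Miat* was most like *Nrg3* (0.998), a neuregulin, followed by *Trpc7* in place 3 (0.997).

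*Gas5* was most like *Pi4kb* (r = 0.987) and *Eif2ak3* (0.974), the latter a kinase of the translation stress response. *Malat1* was most like *Rpap1* (0.978), *Neat1* most like *1700011J10Rik* (0.982), *Pvt1* most like *Btf3* (0.975), and *Dleu2* most like *Gm9830* (0.930), the lowest of these 10 best matches. Among the 10 themselves, *Meg3* and *H19* had r = 0.871 and *Dleu2* ran opposite to *H19* with r = -0.81.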

How the data were processed

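Poly(A) RNA libraries (TruSeq RNA kit v2, without strand) were sequenced by the authors. The submitters' processing notes name CASAVA 1.8.2, TopHat2, Cuffdiff and mm10. The deposited table lists 1 value per genotype and tissue, in the FPKM layout of Cuffdiff, a unit its header does not name. The authors had joined the replicates of a group into that value. The table also holds the authors' own fold changes, test statistics and p- and q-values, which were not used. The paper's calls came by another route, from read counts. The 2 columns of 1 further tissue, without samples in the labels, were not analysed here. Depth is unknown, and the number of samples (2 to 4 per group) limits the precision.

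From these values the log2 change with a pseudocount of 0.1, the count past 1.5-fold among genes with a mean of at least 1 FPKM, tau and Pearson's r were computed (Python 3.11.15, numpy 2.4.6, pandas 2.3.3, matplotlib 3.10.9). The fold calls and tau were checked on simulated data, while the level limit and Pearson's r were not. The rule for named genes took each of the 10 in every tissue, the 3 genes most like each, and from lists of imprinted genes, snoRNA hosts, neighbouring genes, paraspeckle proteins, other long noncoding RNAs and cell type markers the counts and the largest changes. The genes and the lists were chosen with earlier results of these data known. Gene positions and overlaps are from GENCODE vM21 (GRCm38). MicroRNA and start sequences are from RefSeq (GRCm38.p6). Alternatives were other pseudocounts, level limits and fold limits, centring, tested values only, and unscaled or knockout levels.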

Additional observations from a re-analysis of the deposited data

How the results depend on the processing

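Centring on the tissue median, and reading only values marked as tested, kept every count within 1.5 times. The share of all genes past the limit in either direction at the same setting is given in parentheses. With a pseudocount of 1, 0 genes passed the limit in testes (0.911%) and 1 in prostate (1.87%). Over all tissues 0 were then higher in the knockout, since *Rian* in prostate came to 0.52 and *Miat* in testes to 0.47. With 0.01, 2 passed in testes (2.14%), *Meg3* among them at -0.60. With a mean of at least 5 FPKM, 0 passed in testes (0.777%), 1 in prostate (1.71%) and 0 higher over all tissues. Without a level limit, 1 passed in liver (7.55%) and 6 were lower over all tissues. At a 2-fold limit the counts were 0 in testes (0.475%), prostate (1.11%) and MEFs (0.647%), and 0 in either direction over all tissues. *H19* in MEFs lay at the edge of that limit, with a log2 change of -0.9998, and of -1.00004 with a pseudocount of 0.01. On FPKM as deposited the highest tissue became testes for *Malat1* and liver for *Dleu2* (tau 0.319). Rescaling without mitochondrial genes, an alternative added after seeing the data, changed no highest tissue.

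No paired analysis was possible because each genotype has 1 combined value and no replicate values. For the same reason there was no fit without a replicate. Depth is unknown, so the error of values near 1 FPKM, such as *Miat* in testes and *Rian* in prostate, cannot be given.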

Other observations

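Other named long noncoding RNAs at the level limit were counted with the 10 above left out. The share over all genes is given in parentheses. None of 9 was past the 1.5-fold limit in testes (1.92%), none of 9 in prostate (3.08%) and none of 7 in spleen (6.02%). None of 10 was in eyes (3.51%), none of 6 in heart (2.32%) and none of 5 in liver (4.81%). In MEFs (3.18%), 1 of 9 was past it, *Mir17hg*, the host of the miR-17 cluster. It stood at 1.03 FPKM in the wild type and 1.74 FPKM in the knockout. At these shares, such counts among so few genes are not read as a result about them. *Hoxa11os*, transcribed across from the homeobox gene *Hoxa11*, stood at 141 and 118 FPKM in prostate and at 4.59 and 3.47 FPKM in MEFs. *Crnde* stood at 37.1 and 32.5 FPKM in testes and at 2.34 and 2.80 FPKM in eyes. *Airn*, the imprinted antisense RNA of *Igf2r*, had log2 changes of -0.44 in both prostate (16.3 and 12 FPKM) and MEFs (3.48 and 2.53 FPKM), within the limit.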
